A study of Mus musculus with 6 samples.

Results

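The genes described here are Atf4 and 9 genes of the integrated stress response: Atf5, Ddit3, Trib3, Chac1, Asns, Ddit4, Sesn2, Nupr1 and Vldlr. They were taken by gene symbol from the deposited table, which held all 10 among its 13839 genes. RNA was sequenced from the mouse line MLL-ENL-ERtm, labelled acute monocytic leukemia, which carries an MLL-ENL fusion joined to a modified oestrogen receptor. The shTet1 group (3 libraries) had received a pGFP-V-RS retroviral hairpin RNA against Tet1, which encodes a DNA demethylation enzyme, and the shNS group (3 libraries) a scramble, non-specific hairpin in the same vector. Both groups had been selected with puromycin at 1 µg/mL for 3 passages and adapted to SILAC medium, in which amino acids are replaced by isotope-labelled forms, so the control cells shared these conditions too. Polyadenylated RNA was read in single-end reads of 51 bp. The labels do not state that libraries of a group came from separate cultures or clones; a p-value here therefore reflects library-to-library spread, possibly technical.

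In the integrated stress response, kinases that sense amino acid shortage, unfolded protein, viral RNA or lack of haem phosphorylate the translation factor eIF2α. General protein synthesis then slows, while the mRNA of ATF4, a bZIP transcription factor, is translated more. ATF4 protein switches on genes for amino acid synthesis and uptake, for brakes on the growth kinase complex mTORC1 and, through CHOP (the product of Ddit3), for cell death. Because ATF4 is controlled largely at translation, its mRNA level and the amount of its protein need not move together, and only mRNA was measured here.

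ATF4 binds with C/EBP proteins to a composite element, and the promoters were read for its core, TGATGNAA, on both strands. The RefSeq windows (GRCm38.p6) ran from 250 bases before to 50 bases after each annotated start and were at hand for 10 of the 10 genes, in 12 windows. The core was present in windows of 5 of the 10 genes (Chac1, Asns, Nupr1, Trib3 and Vldlr), a share of 50.0%. Of all 27025 genes with a window of the same length, 1219 (4.51%) held it. The variant TGATGCAA stood in 3 of the 10 genes and in 1.03% of all genes. The 3 promoters below carry the core upstream of the start and show 3 settings of it: near the start in Asns, whose human counterpart has a known nutrient-sensing element there, farther out in Nupr1, and farthest in Chac1. Each is the 250 bases before the start, 5′ to 3′ along the gene, and the capitals mark the core or its reverse complement. They are chr6:7693210-7693459 on the minus strand for Asns, chr7:126625471-126625720 on the minus strand for Nupr1 and chr2:119350992-119351241 on the plus strand for Chac1.
Asns: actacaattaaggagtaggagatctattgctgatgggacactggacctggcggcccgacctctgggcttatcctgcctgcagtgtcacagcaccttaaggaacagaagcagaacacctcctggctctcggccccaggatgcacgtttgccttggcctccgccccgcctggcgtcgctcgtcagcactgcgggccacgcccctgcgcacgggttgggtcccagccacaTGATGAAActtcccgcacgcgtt
Nupr1: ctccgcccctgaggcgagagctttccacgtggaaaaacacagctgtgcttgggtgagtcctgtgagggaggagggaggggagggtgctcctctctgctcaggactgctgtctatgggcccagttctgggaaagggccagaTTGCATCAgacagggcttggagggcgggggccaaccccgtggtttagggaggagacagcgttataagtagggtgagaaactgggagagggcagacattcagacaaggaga
Chac1: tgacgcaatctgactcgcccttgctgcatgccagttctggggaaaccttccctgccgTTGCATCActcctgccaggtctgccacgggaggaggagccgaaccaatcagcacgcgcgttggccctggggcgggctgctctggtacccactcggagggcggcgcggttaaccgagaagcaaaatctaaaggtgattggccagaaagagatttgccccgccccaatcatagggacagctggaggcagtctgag
The first base of the element lies at -23 in Asns, at -110 in Nupr1 and at -193 in Chac1, counted from the base before the start as -1. The Trib3 match began 14 bases downstream of the first transcribed base, and the Vldlr match at -200 from the second of its annotated starts. A match is a run of letters and shows no binding, and the windows of Atf4, Atf5, Ddit3, Ddit4 and Sesn2 held no such run.

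Depth on the listed genes was 15873632 to 18592139 reads a library. Tet1, the target of the hairpin, stood at 0.0982, 0.155 and 0.139 FPKM (read counts scaled to gene length and to library depth) in shTet1 replicates 1, 2 and 3, against 0.489, 0.392 and 0.446 FPKM in shNS replicates 1, 2 and 3, which leaves 29.6% of the shNS mean in shTet1. These low levels rest on 25, 39 and 31 reads in shTet1 and 128, 93 and 106 reads in shNS. Tet1 was below the level needed for the main fit and was not tested there. The authors' deposited table lists a log2 difference of -1.62. The libraries carried the marks of the labelled cell type: all 7 monocyte and macrophage genes checked (Csf1r, Emr1, Mpeg1, Cd14, Lyz2, Itgam, Mrc1) were in the table, with a summed level, most of it Lyz2, of 10450 to 16040 FPKM in shTet1 and 3109 to 3591 FPKM in shNS. The 5 stem and progenitor genes checked (Kit, Cd34, Meis1, Hoxa9, Gata2) summed to 73.9 to 88.8 FPKM in shTet1 and 169 to 179 FPKM in shNS. Cd34 had a mean of 33.5 FPKM in shTet1 and 91.9 FPKM in shNS, and Gata2 6.93 FPKM in shTet1 and 26.7 FPKM in shNS. The ranges of Kit overlapped, with means of 19.5 FPKM in shTet1 and 22.1 FPKM in shNS. The 6 myeloid and leukocyte genes checked went both ways. Ptprc, Spi1, Elane and Csf3r had higher means in shTet1, and Mpo and Cebpe lower ones. Of T cell markers 0 of 4 were in the table, and the B cell, erythroid, fibroblast and epithelial markers that were in it summed to at most 2.73 FPKM in any library. The part of this difference in monocyte and progenitor genes in the results below was not tested; in bulk RNA, fewer cells of a kind and less RNA per cell cannot be told apart.

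Differences between groups were fitted by limma on log2(FPKM + 1) for the 11646 genes that reached 1 FPKM in 3 or more libraries, a scale that understates the change of genes with low levels. A gene is said to have risen or fallen where the Benjamini-Hochberg adjusted p was under 0.05. Of the 10 genes, 9 passed the filter, and Vldlr did not. By this rule 3 of the 9 fell in shTet1 (Asns, Ddit4 and Ddit3), against a background of 33.7% of all tested genes that were lower and 19.4% that were higher, so the share of the 9 that fell is close to the background. All 9 fitted differences were below 0, with a median of -0.30 beside -0.13 for all genes tested. That shift of the whole table depends on scaling: after median-of-ratios scaling the median of all genes was -0.01 and that of the 9 genes was -0.17, with 2887 genes higher (24.8%) and 2757 lower (23.7%), against 2254 higher and 3925 lower as deposited.

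**Figure D1:**
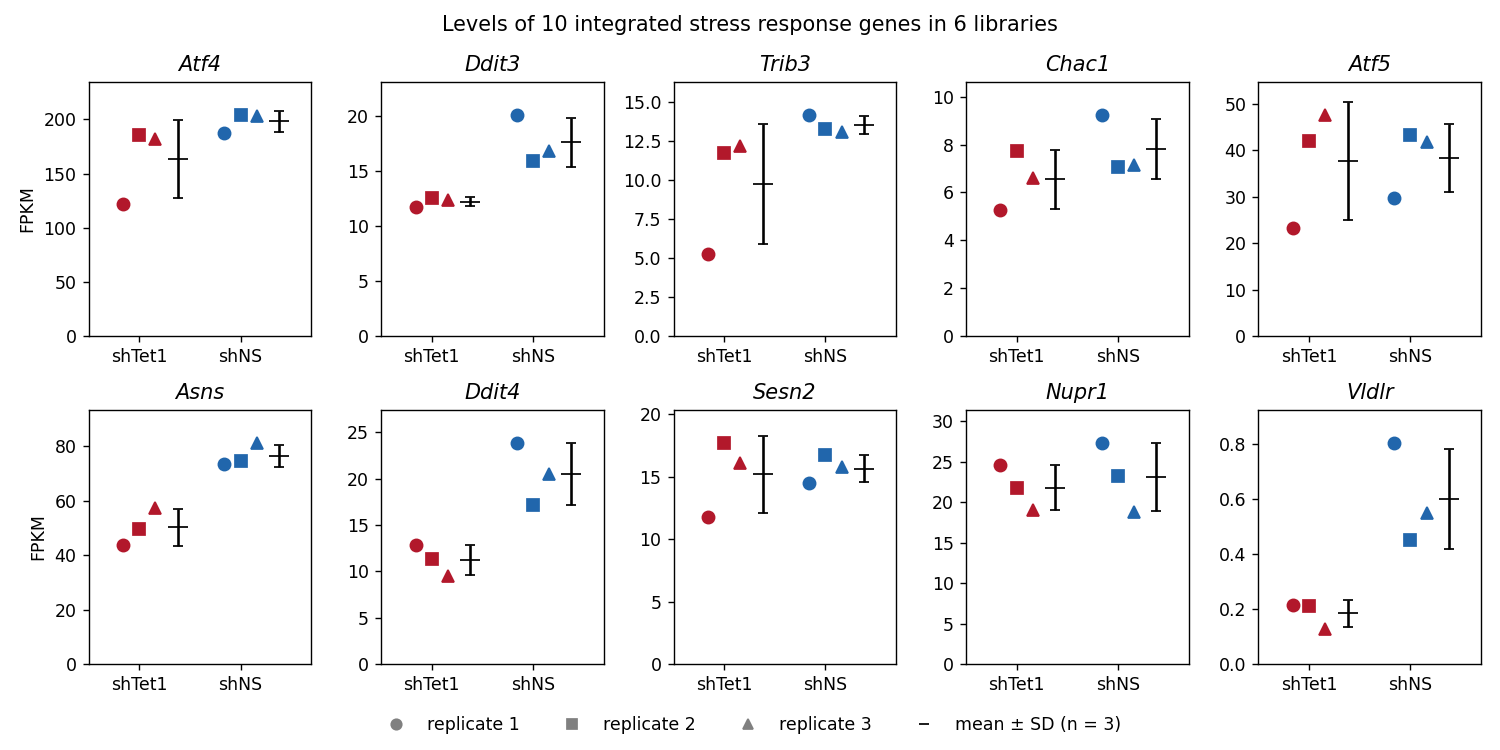
FPKM (y axis, linear from 0) of each of the 10 genes in the 3 shTet1 and 3 shNS libraries, with marker shapes for replicate numbers and bars for the mean ± SD (n = 3). Asns, Ddit4, Ddit3, Vldlr, Atf4 and Trib3 lie lower in every shTet1 library than in any shNS library. For Atf4, Trib3 and Atf5, shTet1 replicate 1 lies far under the other shTet1 libraries.

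Among the regulators, Atf4 (gene ID 11911, chromosome 15, 80255184 to 80257545, GRCm38) was the most abundant of the 10 in both groups. It had 121.7, 186.0 and 182.4 FPKM in shTet1 replicates 1, 2 and 3, against 187.3, 204.3 and 203.3 FPKM in shNS replicates 1, 2 and 3. The groups did not overlap, but shTet1 replicates 2 and 3 came close to the lowest shNS library, and shTet1 replicate 1 was far below all others. The means were 163.4 ± 36.1 FPKM in shTet1 and 198.3 ± 9.55 FPKM in shNS (SD, n = 3 each), and the difference of -0.30 (SE 0.16, log2) did not pass the test (limma, adjusted p = 0.143). With the replicate number as a block the same difference passed (limma, adjusted p = 0.041), in a fit that called 41.0% of all genes lower and 23.1% higher. Without both replicate 1 libraries the difference was -0.15.

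Ddit3 (gene ID 13198, chromosome 10, 127290793 to 127296291) encodes CHOP, a bZIP factor that ATF4 induces and that leads to cell death under lasting stress. It had 11.8, 12.6 and 12.4 FPKM in shTet1 replicates 1, 2 and 3, against 20.1, 15.9 and 16.8 FPKM in shNS replicates 1, 2 and 3. The shTet1 libraries lay close to each other and below all shNS libraries, of which replicate 1 was the highest. Ddit3 fell by 0.49 (SE 0.10, log2; limma, adjusted p = 0.00516), with means of 12.2 ± 0.423 FPKM in shTet1 and 17.6 ± 2.22 FPKM in shNS (SD, n = 3 each). It stayed lower without both replicate 1 libraries, at -0.37 (limma, adjusted p = 0.011).

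Atf5 (gene ID 107503, chromosome 7, 44812256 to 44816658) encodes another bZIP factor whose translation rises under stress and which acts in the mitochondrial stress response. It had 23.4, 42.1 and 47.6 FPKM in shTet1 replicates 1, 2 and 3, against 29.8, 43.3 and 41.7 FPKM in shNS replicates 1, 2 and 3. In each group replicate 1 was the lowest library, and the ranges of the groups overlapped. The means were 37.7 ± 12.7 FPKM in shTet1 and 38.3 ± 7.37 FPKM in shNS (SD, n = 3 each), and the difference was -0.06 (SE 0.26, log2; limma, adjusted p = 0.849).

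Trib3 (gene ID 228775, chromosome 2, 152337425 to 152344060) encodes a pseudokinase that CHOP and ATF4 induce and that feeds back on ATF4. It had 5.29, 11.7 and 12.2 FPKM in shTet1 replicates 1, 2 and 3, against 14.2, 13.2 and 13.1 FPKM in shNS replicates 1, 2 and 3. The groups did not overlap, yet shTet1 replicate 1 was far below the other shTet1 libraries, and these lay close under the shNS libraries. Its difference of -0.51 (SE 0.26, log2) did not pass the test (limma, adjusted p = 0.132). By pairs of equal replicate number, shTet1 minus shNS was -1.27, -0.16 and -0.10.

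Chac1 (gene ID 69065, chromosome 2, 119351242 to 119354326) encodes an enzyme that breaks down glutathione and is a target of the ATF4, ATF3 and CHOP cascade. It had 5.29, 7.72 and 6.62 FPKM in shTet1 replicates 1, 2 and 3, against 9.25, 7.06 and 7.13 FPKM in shNS replicates 1, 2 and 3. The ranges overlapped, with replicate 1 the lowest library of shTet1 and the highest of shNS. Its difference was -0.23 (SE 0.15, log2; limma, adjusted p = 0.227), and without both replicate 1 libraries it was 0.01.

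Asns (gene ID 27053, chromosome 6, 7675165 to 7693209) encodes asparagine synthetase, the textbook target of the amino acid branch of ATF4, and carries the core close to its start in the promoter printed above. It had 43.8, 49.5 and 57.4 FPKM in shTet1 replicates 1, 2 and 3, against 73.4, 74.7 and 81.2 FPKM in shNS replicates 1, 2 and 3. Every shTet1 library lay under every shNS library, and the gap between the groups was wider than the spread inside either. Asns fell by 0.60 (SE 0.11, log2; limma, adjusted p = 0.00252), with means of 50.2 ± 6.83 FPKM in shTet1 and 76.4 ± 4.17 FPKM in shNS (SD, n = 3 each). It stayed lower without both replicate 1 libraries, at -0.54 (limma, adjusted p = 0.00376).

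The next pair of genes restrain mTORC1, the kinase complex that couples growth to nutrients. Ddit4 (gene ID 74747, chromosome 10, 59949675 to 59951770) encodes REDD1, which acts through the TSC complex and is induced by ATF4, by hypoxia and by glucocorticoids. It had 12.8, 11.4 and 9.53 FPKM in shTet1 replicates 1, 2 and 3, against 23.9, 17.1 and 20.5 FPKM in shNS replicates 1, 2 and 3. All shTet1 libraries were under all shNS libraries, and replicate 1 was the highest library of each group. Ddit4 fell by 0.81 (SE 0.14; limma, adjusted p = 0.00241), with means of 11.2 ± 1.66 FPKM in shTet1 and 20.5 ± 3.37 FPKM in shNS (SD, n = 3 each), the largest difference among the 9 tested genes. Without both replicate 1 libraries it was -0.79 (limma, adjusted p = 0.00176).

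Sesn2 (gene ID 230784, chromosome 4, 132492804 to 132510456) encodes sestrin 2, a leucine sensor that holds mTORC1 back through GATOR2. It had 11.8, 17.7 and 16.1 FPKM in shTet1 replicates 1, 2 and 3, against 14.5, 16.7 and 15.7 FPKM in shNS replicates 1, 2 and 3. The shNS values lay inside the shTet1 range, in which replicate 1 was the lowest library. The difference was -0.06 (SE 0.14, log2; limma, adjusted p = 0.759).

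Nupr1 (gene ID 56312, chromosome 7, 126623246 to 126625470) encodes a small chromatin-associated stress protein. It had 24.6, 21.8 and 19.0 FPKM in shTet1 replicates 1, 2 and 3, against 27.3, 23.2 and 18.8 FPKM in shNS replicates 1, 2 and 3. Replicate 1 was the highest library in both groups, and the ranges overlapped almost fully. The difference was -0.07 (SE 0.15, log2; limma, adjusted p = 0.695). For Sesn2, Nupr1 and Atf5 the sign turned with median-of-ratios scaling, to 0.07, 0.06 and 0.07 in that order, so no direction can be given for them.

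Vldlr (gene ID 22359, chromosome 19, 27216480 to 27254231) encodes the very low density lipoprotein receptor, which ATF4 raises under endoplasmic reticulum stress. Its level was low, at 0.213, 0.209 and 0.129 FPKM in shTet1 replicates 1, 2 and 3, against 0.802, 0.450 and 0.549 FPKM in shNS replicates 1, 2 and 3. These rest on 32, 31 and 17 reads in shTet1 and 124, 63 and 77 reads in shNS. All shTet1 libraries were below all shNS libraries, and the shTet1 mean was 30.6% of the shNS mean (0.184 ± 0.0476 FPKM in shTet1 and 0.6002 ± 0.182 FPKM in shNS, SD, n = 3 each). The exact two-sided permutation test of these values gave p = 0.1, the smallest that 3 against 3 libraries can give. On reads recovered from the FPKM and the deposited means, limma-voom gave a log2 difference of -1.68 (SE 0.32, adjusted p = 0.0023). The authors' deposited table lists -1.56 with an adjusted p of 2.49e-06.

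**Figure D2:**
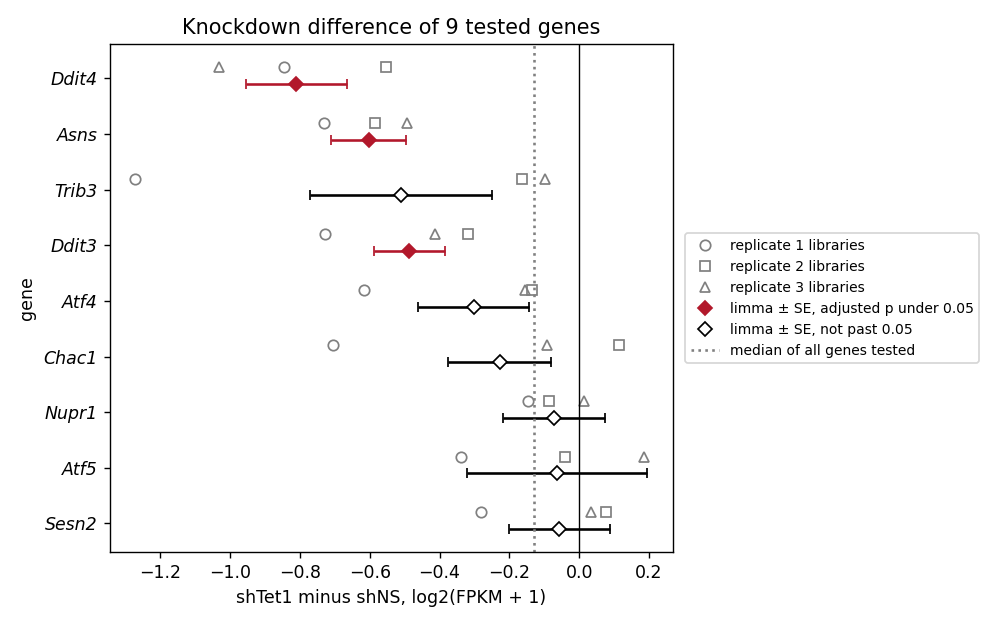
Difference of shTet1 minus shNS on the log2(FPKM + 1) scale (x axis) for the 9 tested genes (y axis). Diamonds are limma estimates ± SE, filled for adjusted p under 0.05, open grey symbols are the 3 pairs of equal replicate number, and the dotted line is the median of all genes tested; Ddit4, Asns and Ddit3 are filled, and for Trib3 the replicate 1 pair stands at -1.27, apart from -0.16 and -0.10.

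The groups did not overlap, with shTet1 lower, for 5 of the 9 tested genes (Atf4, Ddit3, Trib3, Asns and Ddit4), and the same held for 39.1% of all tested genes. Of all genes 22.6% had shTet1 higher without overlap, and 61.8% had no overlap in either direction. In the authors' deposited table Ddit3 (log2 -0.39, adjusted p 0.0443), Asns (-0.47, adjusted p 0.00086) and Ddit4 (-0.73, adjusted p 3.08e-05) are lower as well, and the 6 genes Atf4, Atf5, Trib3, Chac1, Sesn2 and Nupr1 have adjusted p between 0.248 and 0.862 there. That table places Atf5 at 0.11, Sesn2 at 0.09 and Nupr1 at 0.05 on the log2 scale.

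By mean FPKM the order in shTet1 was Atf4, Asns, Atf5, Nupr1, Sesn2, Ddit3, Ddit4, Trib3, Chac1 and Vldlr. In shNS it was Atf4, Asns, Atf5, Nupr1, Ddit4, Ddit3, Sesn2, Trib3, Chac1 and Vldlr. Neighbours whose ranges overlapped in shTet1 were Asns with Atf5, Atf5 with Nupr1, and each step from Sesn2 down to Chac1, so those ranks are not set apart by the libraries. In shNS the overlaps were Nupr1 with Ddit4, Ddit4 with Ddit3, and Ddit3 with Sesn2. Ddit4 thus had the fifth place in shNS and the seventh in shTet1.

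The replicate numbers were also compared, with replicate 1 set against replicates 2 and 3. Earlier results of these data were known when the genes were chosen. The p-values of this split are therefore no independent evidence that replicate 1 stands apart. Over both groups, with group as a term, limma called 6.29% of tested genes higher and 5.76% lower in replicate 1 than in replicates 2 and 3. Of the 9 genes, 1 fell by this test, Atf5, at -0.70 (SE 0.10, log2; limma, adjusted p = 0.0258). Atf5 in replicate 1 was 52.1% of the mean of replicates 2 and 3 in shTet1 and 70.1% in shNS. The call was lost without shTet1 replicate 1 (limma, adjusted p = 0.261) and without shNS replicate 2 (limma, adjusted p = 0.091). The log2 difference was -0.50 without shTet1 replicate 1 and -0.72 without shNS replicate 2.

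Atf4 was lower in replicate 1 by a log2 difference of -0.36 (limma, adjusted p = 0.0588), and Sesn2 by -0.32 (limma, adjusted p = 0.0640), neither past the test. On recovered reads both passed (limma-voom, adjusted p = 0.0267 for Atf4 and 0.0360 for Sesn2), where 7.9% of all genes were lower and 9.12% higher. Ddit4 (0.31; limma, adjusted p = 0.0807) and Nupr1 (0.32; limma, adjusted p = 0.0761) were on the opposite side and did not pass. The values for Trib3 (-0.47), Asns (-0.18), Ddit3 (0.10) and Chac1 (-0.02) did not pass either, with limma adjusted p between 0.174 and 0.950. At an unadjusted p under 0.05, 5 of the 9 genes differed, 3 of them lower, beside 33.3% of all tested genes that differed and 15.8% that were lower.

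Inside each group the values were as follows, replicate 1 against the mean of the others. In shTet1, replicate 1 held 44.3% of the mean of replicates 2 and 3 for Trib3, 66.1% for Atf4, 69.5% for Sesn2 and 73.7% for Chac1. In shNS the same shares were 108% for Trib3, 91.9% for Atf4, 89.3% for Sesn2 and 130.3% for Chac1. Asns stood at 81.9% in shTet1 and 94.1% in shNS, and Ddit3 at 94.3% in shTet1 and 123.0% in shNS. Ddit4 (122.9% in shTet1 and 126.8% in shNS) and Nupr1 (120.5% in shTet1 and 130.0% in shNS) were above 100 in both groups.

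**Figure D3:**
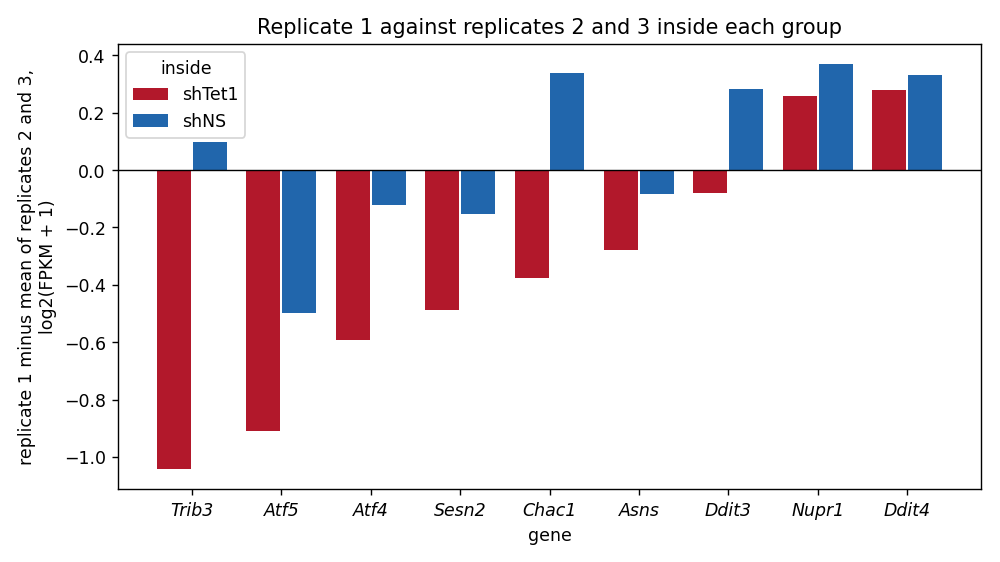
Replicate 1 minus the mean of replicates 2 and 3 on the log2(FPKM + 1) scale (y axis) for the 9 tested genes (x axis), with shTet1 bars left of shNS bars. Trib3 stands at -1.04 in shTet1 and 0.10 in shNS, Chac1 at -0.37 in shTet1 and 0.34 in shNS, and Atf5 is below 0 in both groups.

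Whether the replicate 1 difference differed between the groups was tested as an interaction, shTet1 minus shNS, with residual spread from replicates 2 and 3. No gene of the table passed (limma, 0.0% called in either direction and 0.0% by limma-voom), while 372 genes (3.19%) had an unadjusted p under 0.05, 232 of them (1.99%) with a negative difference. All 9 genes had a negative interaction, with a median of -0.36 beside -0.02 for all genes, and 4 of them had an unadjusted p under 0.05. These were Trib3 at -1.14 (SE 0.16, unadjusted p = 0.000134, limma adjusted p = 0.195), Chac1 at -0.71 (unadjusted p = 0.00594 in limma), Atf4 at -0.47 (unadjusted p = 0.00874 in limma) and Atf5 at -0.41 (unadjusted p = 0.0364 in limma). None of them passed after adjustment, and Trib3 alone passed when shTet1 replicate 2 was left out (limma, adjusted p = 0.0283). Each group has 1 library of this number, so the values describe those libraries. The 9 signs all rest on the same libraries and are not separate observations.

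For 7 of the 9 genes (Atf4, Ddit3, Trib3, Chac1, Atf5, Asns and Sesn2), shTet1 replicate 1 was the lowest of all 6 libraries, which held for 26.8% of tested genes. Replicate 1 was the lowest of the shTet1 libraries for the same 7, and for 38.6% of tested genes. For 4 of them (Atf4, Atf5, Asns and Sesn2) replicate 1 was the lowest in both groups, beside 26.1% of tested genes. Hypoxia genes and amino acid transporters also differed between the replicate numbers, as described below, and their part in these values was not tested.

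The 5 genes whose pattern over the 6 libraries was nearest to that of Atf4, among 8293 genes with a mean of at least 5 FPKM, were Letm1, Srebf2, Phactr4, Drap1 and Kctd3. The root mean square difference of their centred log2(FPKM + 1) values was between 0.0463 and 0.0604. Letm1, a mitochondrial inner membrane protein gene, had 9.80, 14.9 and 15.1 FPKM in shTet1 replicates 1, 2 and 3 and 14.6, 17.4 and 17.5 FPKM in shNS replicates 1, 2 and 3. Nearest to Chac1 were Lrrc8c, Erich1, Tinf2, Lsm1 and Ccdc124, at 0.0928 to 0.115. Among the 9 tested genes themselves, the closest were Atf4 with Sesn2 (0.133), Ddit3 with Asns (0.166) and Ddit3 with Chac1 (0.172). Each of these genes lay nearer to genes outside the set than to any of the 9. The nearest were Letm1 for Atf4 (0.0463), Crlf2 for Sesn2 (0.0219) and Fam96b for Ddit3 (0.0444). For Asns it was Diexf (0.026), and for Chac1 Lrrc8c (0.0928).

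Upstream of ATF4, none of the 4 kinases of eIF2α passed the test, with limma adjusted p between 0.0768 and 0.548. Eif2ak1 averaged 19.6 ± 0.479 FPKM in shTet1 and 18.1 ± 0.771 FPKM in shNS, Eif2ak2 17.7 ± 0.383 FPKM in shTet1 and 16.9 ± 1.29 FPKM in shNS, and Eif2ak3 9.85 ± 0.214 FPKM in shTet1 and 8.86 ± 0.0944 FPKM in shNS (SD, n = 3 each). Eif2ak4, the kinase GCN2 that senses uncharged tRNA, averaged 6.52 ± 0.466 FPKM in shTet1 and 7.69 ± 0.291 FPKM in shNS (SD, n = 3 each; limma, adjusted p = 0.0768). Of the list of 8 kinases and activators, 2 fell: Gcn1l1, whose product lets GCN2 sense uncharged tRNA (-0.56; limma, adjusted p = 0.0104), and 0610009O20Rik (-0.49; limma, adjusted p = 0.0093). The median of the 8 was -0.01, beside -0.13 for all genes. Of all genes 33.7% fell and 19.4% rose, so the share of the list that fell is below that of all genes. The calls of the kinases depend on the fit. After scaling, where 24.8% of all genes rose, Eif2ak1 (limma, adjusted p = 0.0448) and Eif2ak3 (limma, adjusted p = 0.0220) rose. With the replicate block Eif2ak4 fell (limma, adjusted p = 0.0407) and Oma1, an activator of the pathway, rose (limma, adjusted p = 0.0199). The blocked fit called 41.0% of all genes lower and 23.1% higher.

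Of 12 genes for eIF2, its exchange factor eIF2B and the phosphatase that resets eIF2α, 7 fell and 1 rose, with a median of -0.35, while of all genes 33.7% fell and 19.4% rose, with a median of -0.13. Those that fell encode subunits: Eif2s1, Eif2s2, Eif2s3x (-0.49), Eif2b1 (-0.47), Eif2b3, Eif2b4 and Eif2b5. Eif2s3x had 106, 97.3 and 112 FPKM in shTet1 replicates 1, 2 and 3, against 156, 140 and 147 FPKM in shNS replicates 1, 2 and 3, with no overlap (limma, adjusted p = 0.00229). The gene that rose was Ppp1r15b, the constitutive targeting subunit of the eIF2α phosphatase, at 0.62 (limma, adjusted p = 0.000518), while the stress-induced subunit Ppp1r15a averaged 19.1 ± 5.99 FPKM in shTet1 and 21.4 ± 1.20 FPKM in shNS (SD, n = 3 each; limma, adjusted p = 0.433). With scaling or with the replicate block 3 genes of the list rose, and without shTet1 replicate 1, shTet1 replicate 3 or shNS replicate 1, 2 did.

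Of 14 bZIP genes whose products pair with ATF4 or share its elements, 8 rose (Cebpb, Cebpd, Atf3, Nfe2l2, Jun, Junb, Fos and Maf), Cebpe fell and 5 did not pass, with a median of 0.66 beside -0.13 for all genes, of which 19.4% rose and 33.7% fell. Atf3, itself an ATF4 target, had 10.03, 10.57 and 5.96 FPKM in shTet1 replicates 1, 2 and 3, against 1.82, 1.80 and 2.94 FPKM in shNS replicates 1, 2 and 3. All shTet1 libraries exceeded all shNS libraries (1.61, SE 0.22; limma, adjusted p = 0.000724). Cebpd rose by 1.05 (limma, adjusted p = 0.000607) and Junb by 1.00 (limma, adjusted p = 0.000462). Without shNS replicate 2, 5 of the 14 rose, beside 1846 of all 11466 genes. With the replicate block 2 fell, beside 41.0% of all genes. Several of these factors are also abundant in monocytes and macrophages, whose marker genes were higher in shTet1, and the part of that difference was not tested.

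All 12 tested amino acid synthesis genes known as ATF4 targets fell in shTet1, with a median of -0.71, beside the background of 33.7%. They were Phgdh, Psat1, Psph, Shmt2, Mthfd2, Mthfd1l, Pycr1, Aldh18a1, Cth, Gpt2, Got1 and Pck2; of the 14 listed, Aldh1l2 was under the filter and Cbs was not in the table. Phgdh, the first enzyme of serine synthesis, had 58.2, 67.1 and 83.5 FPKM in shTet1 replicates 1, 2 and 3, against 137.7, 155.6 and 152.9 FPKM in shNS replicates 1, 2 and 3. No shTet1 library came near the shNS range, and the difference was -1.10 (SE 0.13; limma, adjusted p = 0.000441). Psat1, the next enzyme of that route, averaged 79.7 ± 8.66 FPKM in shTet1 and 143.0 ± 5.62 FPKM in shNS (SD, n = 3 each), a difference of -0.84 (limma, adjusted p = 0.000326). Mthfd1l, of the mitochondrial folate cycle, fell by 0.54 (limma, adjusted p = 0.00105). After scaling, 11 of the 12 stayed lower, with a median of -0.60. The core TGATGNAA was in the windows of 3 of the 11 genes of this list with a window (Got1, Pck2 and Pycr1), beside 4.51% of all genes with a window.

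Of 9 amino acid transporter genes, 6 fell (Slc7a11, Slc3a2, Slc1a4, Slc1a5, Slc6a9 and Slc43a1), with a median of -0.80, beside 33.7% of all genes. Slc1a4, a carrier of neutral amino acids, had 2.14, 2.86 and 2.62 FPKM in shTet1 replicates 1, 2 and 3, against 4.83, 8.29 and 7.95 FPKM in shNS replicates 1, 2 and 3 (-1.16, SE 0.18; limma, adjusted p = 0.0015). Slc6a9, a glycine carrier, fell by 1.11 (limma, adjusted p = 0.00328), and Slc43a1, a carrier of large neutral amino acids, by 0.87 (limma, adjusted p = 0.000564). With scaling, without shNS replicate 2 and without shNS replicate 3, 3 of the 9 passed in each case. Of all genes, 23.7% fell after scaling, 3027 of 11466 without shNS replicate 2 and 2676 of 11457 without shNS replicate 3. Slc38a2 averaged 64.8 ± 2.07 FPKM in shTet1 and 66.4 ± 0.850 FPKM in shNS (SD, n = 3 each; limma, adjusted p = 0.692).

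Aminoacyl-tRNA synthetases charge tRNAs with amino acids, and 9 of 13 genes for them and for tRNA export fell (Eprs, Gars, Iars, Lars, Mars, Nars, Tars, Wars and Xpot), with a median of -0.53, beside 33.7% of all genes. Lars had 39.7, 40.1 and 46.4 FPKM in shTet1 replicates 1, 2 and 3, against 63.5, 65.9 and 67.7 FPKM in shNS replicates 1, 2 and 3, with no overlap (-0.64, SE 0.09; limma, adjusted p = 0.00073). Eprs fell by 0.67 (limma, adjusted p = 0.000774) and Wars by 0.70 (limma, adjusted p = 0.00773). The count was 5 of 13 with scaling, where 23.7% of all genes fell. It was the same without shTet1 replicate 2, without shNS replicate 2 and without shNS replicate 3. In that order, those fits called 2931 of 11502, 3027 of 11466 and 2676 of 11457 genes lower. The core was in the windows of 5 of the 9 genes of this list with a window (Aars, Gars, Iars, Tars and Yars), beside 4.51% of all genes with a window. Of these carriers, Aars and Yars were not among the genes that fell.

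Of 17 other targets of ATF4 or CHOP, 4 rose (Bcl2l11, Gdf15, Map1lc3b and Atf3) and 4 fell (Bbc3, Pmaip1, Stc2 and Lonp1), with a median of 0.03; among all genes 19.4% rose and 33.7% fell, so the shares of the list are near or below those of all genes. Map1lc3b, an autophagosome protein gene, averaged 100.0 ± 4.60 FPKM in shTet1 and 62.0 ± 1.91 FPKM in shNS (SD, n = 3 each; 0.68; limma, adjusted p = 0.000298). Bcl2l11, which encodes the death protein BIM, rose by 0.72 (limma, adjusted p = 0.000647), while Bbc3 and Pmaip1, which encode the death proteins PUMA and NOXA, fell.

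In the IRE1, XBP1 and ATF6 branches of the unfolded protein response, 3 of 19 genes rose (Dnajb9, Edem1 and Sel1l) and 5 fell (Pdia4, Calr, Manf, Hyou1 and Sec61b), with a median of -0.06, and both shares are below those of all genes (19.4% and 33.7%). Edem1, which takes part in clearing misfolded glycoproteins, rose by 0.61 (limma, adjusted p = 0.000462) and Calr, the chaperone calreticulin, fell by 0.46 (limma, adjusted p = 0.00616). Hspa5, the chaperone BiP, averaged 391.1 ± 29.7 FPKM in shTet1 and 404.1 ± 13.9 FPKM in shNS (SD, n = 3 each; limma, adjusted p = 0.644). The count of genes that fell was 2 with scaling and without shNS replicate 2, and 3 without any 1 of shTet1 replicates 1 and 2 and shNS replicates 1 and 3.

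Of 18 regulators of mTORC1, the complex that Ddit4 and Sesn2 restrain, 3 rose (Deptor, Rragc and Rraga) and 5 fell (Mtor, Rptor, Sesn1, Sesn3 and Mios), with a median of -0.16, and both shares are below those of all genes (19.4% and 33.7%). Deptor, an inhibitor of mTOR, averaged 4.05 ± 0.187 FPKM in shTet1 and 2.53 ± 0.286 FPKM in shNS (SD, n = 3 each; limma, adjusted p = 0.00336). Mios, of the GATOR2 complex to which sestrins bind, fell by 0.60 (limma, adjusted p = 0.00103). Sesn1 averaged 11.1 ± 1.73 FPKM in shTet1 and 15.7 ± 2.47 FPKM in shNS (SD, n = 3 each), lower by the test (-0.46; limma, adjusted p = 0.0248) but not after scaling (limma, adjusted p = 0.0748). With scaling, and without shNS replicate 3, 2 genes of the list fell, and with the replicate block 8 did.

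**Figure D4:**
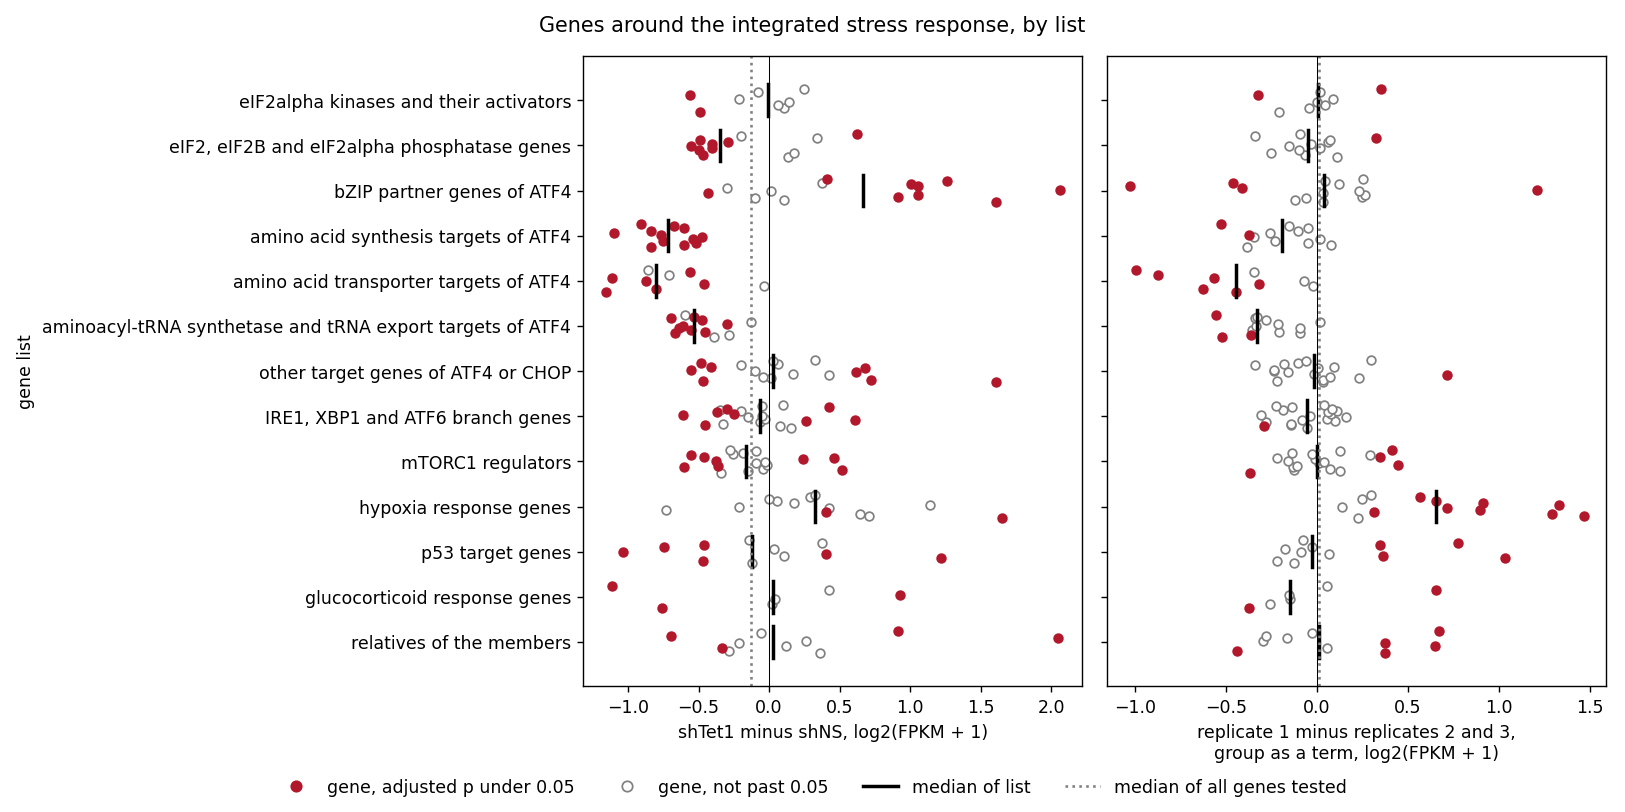
Log2(FPKM + 1) differences (x axes) of every tested gene of the 13 lists (y axis), shTet1 minus shNS at left and replicate 1 minus replicates 2 and 3 at right. Filled points passed adjusted p 0.05, thick bars are list medians and dotted lines the median of all genes; the amino acid synthesis list has 12 of 12 filled points below 0 at left, and the hypoxia list 9 of 13 above 0 at right.

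Lists of other inputs to these genes were set beside them. Among all tested genes 19.4% rose and 33.7% fell, with a median of -0.13. With the replicate block 23.1% of all genes rose and 41.0% fell. Of 13 hypoxia genes, 2 rose in shTet1 (Aldoc and Egln1), with a median of 0.33. With the replicate block 8 rose and 1 fell. Without both replicate 1 libraries 7 rose, beside 2220 of all 11224 genes. Without shNS replicate 1, 5 did, beside 2020 of all 11459 genes. Aldoc, a glycolytic enzyme gene, averaged 20.3 ± 2.94 FPKM in shTet1 and 5.74 ± 0.464 FPKM in shNS (SD, n = 3 each; 1.65; limma, adjusted p = 6.18e-05). The call of Egln1 was lost without shTet1 replicate 1 or 2 and without shNS replicate 2 or 3 (limma, adjusted p between 0.0612 and 0.107). Of 11 p53 targets, 2 rose (Cdkn1a and Btg2) and 4 fell (Bbc3, Sesn1, Phlda3 and Gtse1), shares near those of all genes. Without shTet1 replicate 2, shNS replicate 2 or shNS replicate 3, 1 rose. Of 6 glucocorticoid response genes, Sgk1 rose by 0.93 (limma, adjusted p = 0.000623), and Fkbp5 (-0.76; limma, adjusted p = 0.00553) and Zbtb16 (-1.11; limma, adjusted p = 8.29e-05) fell. With the replicate block Tsc22d3 rose too (limma, adjusted p = 0.0169). Without the block, the shares of these 6 genes that rose and fell were near those of all genes.

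Among 10 tested relatives of the genes, 2 rose (Lrp1 and Trib1) and 2 fell (Lrp8 and Atf2); with the replicate block 4 rose and 4 fell, and without shTet1 replicate 2, shNS replicate 2 or shNS replicate 3, 1 rose. These shares are near or below those of all genes (19.4% higher and 33.7% lower). Lrp1, of the receptor family of Vldlr, rose by 2.05 (limma, adjusted p = 5.05e-05), with 64.4, 81.6 and 64.7 FPKM in shTet1 replicates 1, 2 and 3, against 14.9, 18.7 and 14.9 FPKM in shNS replicates 1, 2 and 3. Lrp8, the closest relative of Vldlr, averaged 5.60 ± 1.20 FPKM in shTet1 and 9.60 ± 1.05 FPKM in shNS (SD, n = 3 each) and fell by 0.69 (limma, adjusted p = 0.0049). Trib1, of the family of Trib3, averaged 11.5 ± 3.64 FPKM in shTet1 and 5.63 ± 1.98 FPKM in shNS (SD, n = 3 each; 0.92; limma, adjusted p = 0.017). Atf2 fell by 0.33 (limma, adjusted p = 0.0103) but not after scaling (limma, adjusted p = 0.0613).

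Between the replicate numbers, 9 of 13 hypoxia genes were higher in replicate 1 (Bnip3, Slc2a1, Ndrg1, Egln3, Egln1, Ankrd37, Pdk1, P4ha1 and Ero1l), beside the background of 6.29% of genes, with a median of 0.65 against 0.01 for all genes. Bnip3, a mitophagy receptor gene, had 264, 107 and 111 FPKM in shTet1 replicates 1, 2 and 3 and 171, 63.6 and 74.0 FPKM in shNS replicates 1, 2 and 3 (1.29, SE 0.08; limma, adjusted p = 0.00128). Ero1l, an oxidase of the endoplasmic reticulum and a CHOP target, was higher by 0.71 (limma, adjusted p = 0.00966). In both genes replicate 1 was the highest library of each group. The count was 5 of 13 without shNS replicate 2, in a fit that called 19 of all 11466 genes higher. Most of these calls were lost without shTet1 replicate 1, which leaves 1 library of this number and few calls over the whole table.

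In the same comparison 6 of 9 amino acid transporter genes were lower in replicate 1 (Slc7a5, Slc3a2, Slc7a1, Slc1a4, Slc1a5 and Slc6a9), with a median of -0.45, beside the background of 5.76%. Slc7a5, the main leucine carrier, had 19.9, 45.5 and 56.4 FPKM in shTet1 replicates 1, 2 and 3 and 49.7, 83.1 and 77.4 FPKM in shNS replicates 1, 2 and 3 (-0.99, SE 0.15; limma, adjusted p = 0.0258). Replicate 1 was the lowest library in both groups. Of 13 synthetase and tRNA export genes 3 were lower (Aars, Cars and Yars), and of 12 amino acid synthesis genes 2 were (Shmt2 and Pck2), while limma-voom called 8 and 4. Without shNS replicate 2 the counts fell to 0 for all 3 lists, in a fit that called 3 of all 11466 genes lower. Without shNS replicate 3, 2 transporter genes were lower, beside 121 of all 11457 genes. Calls were also lost without shTet1 replicate 1, which leaves 1 library of this number and few calls over the whole table. Of the bZIP genes, Jun (-1.03; limma, adjusted p = 0.0258), Jund and Jdp2 were lower and Fos (1.21; limma, adjusted p = 0.0188) was higher in replicate 1. Their calls too were lost without shTet1 replicate 1.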

How the data were processed

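RNA was measured in 3 shTet1 and 3 shNS libraries, with groups and replicate numbers from the sample titles. The authors deposited 1 table of 13839 genes with a value per library that was taken as FPKM, since no header names the unit. The mean signal per group, the fold change (a ratio), its log2 value and the p-value and adjusted p-value were also deposited, per the file headers, and each quote from them names that table. Reads were placed on GRCm38, per the submitters' processing notes; which aligner and counter were used is not given here. Because the table held genes with a mean of 4 or more normalized reads, absence from it may mean a low level. Of the gene IDs 13798 were found in the RefSeq annotation of GRCm38.p6, and 34 symbols lost to dates or blanks were resolved by ID.

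limma 3.58.1 in R 4.3.3, with an intensity trend, was fitted to log2(FPKM + 1) of the 11646 genes that passed the filter, two-sided, over all genes, with group as the sole term, with a replicate 1 term added, or with their product. Whole reads could be recovered from the FPKM together with the deposited means of normalized reads, for 100.0% of values (tolerance 0.001 read). On these reads limma-voom was run for the 13198 genes that reached 10 reads in 3 or more libraries. Other alternatives were a pseudocount of 0.1, no filter, median-of-ratios scaling, a replicate block and leaving out libraries. Deviations of same-numbered libraries correlated across genes at 0.61, 0.36 and 0.21 for replicates 1, 2 and 3. For unequal numbers the range was -0.52 to 0.34. The deviations of shTet1 replicate 3 correlated more with shNS replicate 2 (0.34) than with shNS replicate 3 (0.21). These values set replicate 1 apart and do not settle whether replicates 2 and 3 are pairs. The fit behind the printed calls has no block, and a blocked value is given where it changes a member's call or clearly moves a list's count. Fits were tested on simulated data. Named genes were all members, Tet1, up to 3 genes of each list with the smallest p for shTet1 and up to 2 for replicate 1, and the 5 nearest in pattern to Atf4 and to Chac1; others were named after their values were seen. The members and lists were chosen with earlier results of these data known.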

Additional observations from a re-analysis of the deposited data

How the results depend on the processing

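Ddit3, Asns and Ddit4 stayed lower, and no member was called higher, under every alternative run; 4 members were lower with no filter, with limma-voom (Vldlr added in both) and with the replicate block (Atf4 added), which changed no other member's call. With shTet1 and shNS compared, signs turned under median-of-ratios scaling for Atf5 (0.068), Sesn2 (0.070) and Nupr1 (0.057), and without both replicate 1 libraries for Chac1 (0.010), Atf5 (0.073) and Sesn2 (0.055). With 1 library left out, that difference ranged over -0.26 to 0.24 for Atf5, -0.17 to 0.11 for Sesn2 and -0.21 to 0.050 for Nupr1. The cause was not tested. In the fits without 1 library, 1698 to 2181 genes of the whole table were higher and 2676 to 4007 lower. These are the background for the list counts given above without 1 library.

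For replicate 1 against replicates 2 and 3, limma-voom called 1204 genes higher, 1042 lower and 3 members lower (Atf5, Atf4 and Sesn2), and put Chac1 at 0.0029. Leaving out 1 library gave 7 to 1004 genes higher, 3 to 883 lower and 0 to 3 members lower, with Trib3 from -1.04 to 0.10, Chac1 from -0.37 to 0.34 and Ddit3 from -0.078 to 0.28. Without shTet1 replicate 1 the counts were 7 higher and 6 lower. For the interaction, a pseudocount of 0.1 called 2 genes lower, and leaving out a replicate 2 or 3 library called 3 to 17 genes higher, 3 to 39 lower and 0 to 1 member lower (Trib3), with Ddit4 from -0.18 to 0.070 and Nupr1 from -0.25 to 0.034. Where a group was left with 1 library, that library was assumed to vary like the others. The replicate block was fitted for the knockdown comparison alone, where it called 2692 genes higher and 4780 lower, against 2254 and 3925. Depth limits Vldlr most, with 17 to 124 reads per library.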
